A study of Bos taurus with 6 samples.

Results

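Splicing factor genes were read in bovine granulosa cells exposed to fibroblast growth factor 18 (FGF18). The genes were those whose symbol in the array's annotation starts with HNRNP, HNRP, SFRS, SRSF, SNRP, SF3A or SF3B, and they number 55 of 15229 genes with a symbol. They comprise 20 heterogeneous nuclear ribonucleoprotein (hnRNP) genes, 14 genes of serine/arginine-rich (SR) proteins or their relatives, 12 genes of small nuclear ribonucleoprotein (snRNP) proteins and 9 genes of the SF3A and SF3B complexes. The older SFRS symbols are those of the array, and 16 of the 55 were matched to a newer name, such as SRSF6 for SFRS6. Each gene is represented by its brightest probe.

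FGF18-treated cells were compared with untreated cells. Both came from follicles of 2 to 6 mm of Holstein crossbred cows from an abattoir, and both were cultured for 5 days without serum with 10 ng/ml each of insulin and follicle-stimulating hormone (FSH). FGF18 was given at 10 ng/ml for 2 h. The study has 3 biological replicates. On the 2-colour arrays, 3 carried FGF18 RNA in Cy5 and 3 carried control RNA in Cy5. Each replicate was taken as the 2 arrays of the same title number, with the dyes exchanged. The labels do not state that such a pair shares RNA. The source names end in T2 for FGF18-treated cells and T0 for untreated cells, codes that the labels do not define. If T0 means that untreated cells were collected when FGF18 was added, time in culture and FGF18 cannot be told apart in any ratio here. The labels do not say how many animals a replicate holds.

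Pre-mRNA splicing is carried out by the spliceosome, in which snRNP particles built on a ring of Sm proteins recognise the ends of introns and the SF3A and SF3B complexes bind the branch point. SR proteins bind exonic enhancers and recruit the spliceosome, and hnRNP proteins often act against them by covering splice sites or silencers. Many of these proteins also regulate the splicing of their own transcripts, and growth factor kinases are known to alter SR protein phosphorylation, which RNA levels do not show.

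All 55 genes had signal above background in 3 or more arrays for FGF18 RNA, control RNA or both. By the same rule 12200 of all 15229 genes did, each read by its brightest probe. The cutoff was 2 SD over the mean of the array's negative control spots, of which there were 153. Per array, 54 to 55 of the 55 probes were above background for FGF18 RNA and 53 to 55 for control RNA, against 45.7% to 73.5% of all gene probes per channel. The latter share also covers the dimmer probes of a gene and probes without a symbol. The number of arrays limits the precision. Of 10 granulosa markers, 8 were above background by the same rule, among them INHBA, INHA, FST and AMH, and the 10 had log2 ratios from -1.21 (NR5A2) to 0.73 (INHA) around a median of 0.03. At an unadjusted p under 0.05 in limma, 1 of them had a ratio above 0 and 1 below, beside 2.32% and 1.18% of all genes. FOXL2 and HSD17B1 were above it on 0 arrays, and CYP19A1 (aromatase) on 2 arrays for FGF18 and 4 for control. All 10 theca and stroma markers, 4 of 6 endothelial, 6 of 6 leukocyte and 4 of 6 oocyte markers were above background too, with median log2 ratios of 0.01, 0.05, -0.02 and -0.04. In such bulk RNA, fewer cells of a type and less RNA per cell cannot be told apart. Replicates did not share 1 pattern of ratios: the correlation over all genes was -0.26 for replicates 1 and 2, -0.07 for 1 and 3, and 0.39 for 2 and 3.

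A ratio here means log2(FGF18/control), averages carry the SD over n = 3 replicates, and intervals are 95% intervals from limma. None of the 55 genes passed the test after adjustment, but the SR genes SFRS3, SFRS4, SFRS5 and SFRS6 and the branch point gene SF3B14 had ratios above 0 in every replicate and an unadjusted p under 0.05. With limma and Benjamini-Hochberg adjustment over 15229 genes, 0 of 55 had an adjusted p under 0.05, as did 0 of 15229 genes (0%), and the smallest adjusted p was 0.986. At an unadjusted p under 0.05 there were 5 of the 55 genes on the higher side, or 9.09%, beside 2.32% of all genes, and 0 of 55 on the lower side, beside 1.18%. In either direction 3.49% of all genes had such a p. These 5 calls rest on single replicates in part. An unadjusted p under 0.05 in limma was left for SFRS6 without replicate 1 and for SF3B14 and SFRS6 without replicate 2. Without replicate 3 it was left for SF3B14 and SFRS3. The sign of the 5 means could not change in this way, since each replicate was above 0. The ratio was above 0 in all 3 replicates for 11 of the 55 genes, or 20%, beside 12.0% of all genes, and below 0 in all 3 for 3, or 5.45%, beside 12.0%. On all 6 arrays 7 genes had a ratio above 0 and 0 had one below 0, beside 4.47% and 2.73% of all genes.

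The splicing genes were brighter than most, with a median log2 intensity of 11.3 against 7.4 for all genes. Among the 3499 genes of mean log2 intensity of at least 10, 13.3% had ratios above 0 in all 3 replicates, 6.37% on all 6 arrays and 3.20% at an unadjusted p under 0.05 on the higher side. Of the 39 splicing genes that bright, these counts were 9, 6 and 4. On the lower side, 9.00% of those bright genes were below 0 in all 3 replicates, 4.03% on all 6 arrays and 1.91% at an unadjusted p under 0.05, and the splicing genes numbered 2, 0 and 0. The mean ratio was above 0 for 36 of 55 splicing genes, or 65.5%, beside 46.7% of all genes. Among those of log2 intensity of at least 10, it was above 0 for 29 of 39 splicing genes, or 74.4%, beside 52.1% of all genes that bright. Median ratios were 0.06 for the 55, 0.07 for hnRNP, 0.15 for SR, 0.06 for snRNP and 0.03 for SF3 genes, with 0.01 for the bright genes and -0.01 for all genes. The snRNP median turned to -0.06 on the arrays with FGF18 in Cy5 and was 0.08 on those with the control in Cy5. In replicates 1, 2 and 3 the median of the 55 was 0.03, 0.23 and 0.04, so replicate 2 lay highest, as it did for the bright genes at 0.07. Without replicate 2 it was 0.03, with 30 genes above 0 and 25 below.

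**Figure D1:**
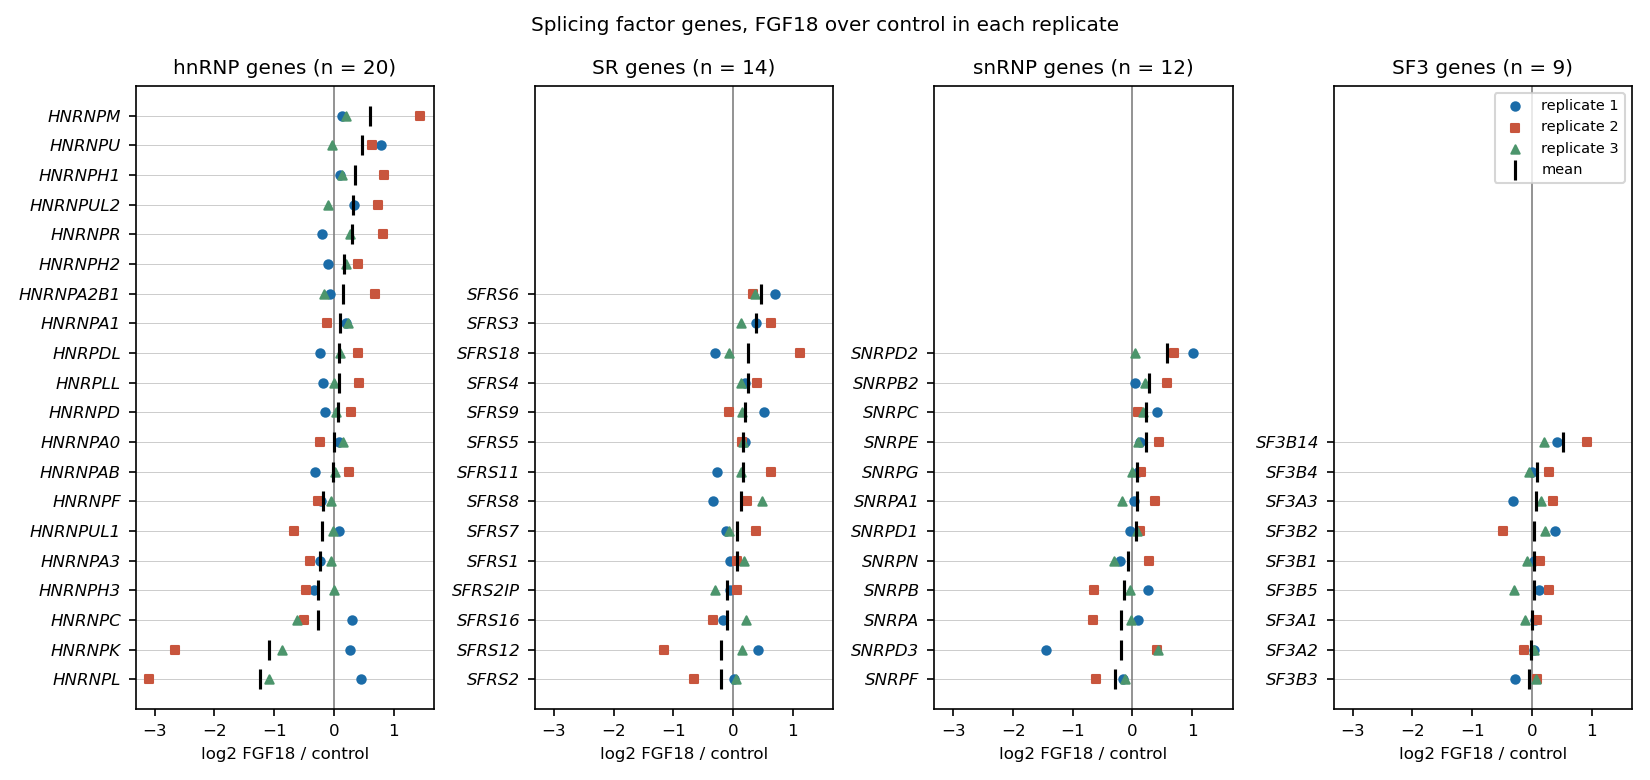
Log2 ratio of FGF18 over control (x axis) for the 55 splicing factor genes (rows, sorted by mean within each family), with 1 symbol per replicate (mean of its 2 arrays) and a bar for the mean of 3 replicates. SFRS3, SFRS4, SFRS5, SFRS6 and SF3B14 have all 3 symbols above 0, while HNRNPK lies at 0.27 and HNRNPL at 0.46 in replicate 1 but at -2.66 and -3.09 in replicate 2.

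Of 14 SR genes, 4 had a ratio above 0 and 0 below 0 in every replicate, and these 4 are also those with an unadjusted p under 0.05. Over all genes, 12.0% were above 0 and 12.0% below 0 in every replicate, and 3.49% had such a p in limma. SR proteins join RNA recognition motifs to a tail of arginine-serine repeats. SFRS6, now SRSF6, an exon-defining splicing activator, had log2 intensities of 14.86, 14.28 and 14.48 in FGF18-treated cells of replicates 1, 2 and 3, against 14.16, 13.95 and 14.11 in untreated cells. The FGF18 values lay above all 3 control values. How many of all genes separate in this way was not counted, for SFRS6 or for the genes below. The genes were picked by p or mean in these same data. On single arrays its ratios were 0.77, 0.16 and 0.32 with FGF18 in Cy5 and 0.65, 0.49 and 0.42 with the control in Cy5 (replicates 1, 2 and 3 in that order, here and below). The mean was 0.47 ± 0.21, or 1.38-fold, with an interval of 0.16 to 0.78 and an unadjusted p of 0.0155 (adjusted p = 0.986, limma). Its other probes above background gave -0.04, -0.22 and 0.18, and the first 2 of these differ from the brightest probe in sign. The mean of all its probes gave 0.10 with an unadjusted p of 0.222 in limma.

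SFRS3, now SRSF3, the smallest classical SR protein and an adaptor of mRNA export, had log2 intensities of 11.58, 11.73 and 11.26 in FGF18-treated cells of replicates 1, 2 and 3, against 11.20, 11.10 and 11.13 in untreated cells. The groups did not overlap. Its ratios were 0.24, 0.44 and -0.01 with FGF18 in Cy5 and 0.53, 0.83 and 0.27 with the control in Cy5, with 1 of 6 arrays just under 0. They averaged 0.38 ± 0.25, with an interval of 0.03 to 0.74 and an unadjusted p of 0.0416 in limma. SFRS4, now SRSF4, a long SR protein close in build to SFRS5 and SFRS6, had ratios of 0.21, 0.33 and 0.03 with FGF18 in Cy5 and 0.19, 0.48 and 0.24 with the control in Cy5. All 6 were above 0, with a mean of 0.25 ± 0.14 and an interval of 0.01 to 0.49 (unadjusted p = 0.0472, limma). SFRS5, now SRSF5, had 0.17, 0.19 and 0.23 with FGF18 in Cy5 and 0.23, 0.11 and 0.10 with the control in Cy5. The SD between replicates was the smallest of the SR genes, with a mean of 0.17 ± 0.03 and an interval of 0.01 to 0.34 (unadjusted p = 0.044, limma). The dimmer probe of SFRS5 gave 0.33 but spread widely, with replicates at -0.14, 0.90 and 0.24. With the mean of all probes, SFRS5 no longer had an unadjusted p under 0.05 in limma. The adjusted p was 0.986 in limma for SFRS3, SFRS4 and SFRS5 alike. For SFRS4 and SFRS5 the log2 intensities of the groups overlapped. SFRS4 had 10.36, 9.93 and 9.74 in FGF18-treated cells against 10.16, 9.53 and 9.60 in untreated cells. SFRS5 had 13.81, 13.73 and 13.95 against 13.61, 13.58 and 13.78.

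The other classical SR genes gave no common sign. SFRS1, now SRSF1, an early-described activator of exon inclusion, had -0.04, 0.05 and 0.09 with FGF18 in Cy5 and -0.07, 0.07 and 0.27 with the control in Cy5, mean 0.06 ± 0.11 with an interval of -0.16 to 0.28. Its other probes gave 0.11 and 0.29. SFRS2, now SRSF2, a component of nuclear speckles, had 0.0013, -0.72 and 0.04 with FGF18 in Cy5 and 0.02, -0.59 and 0.05 with the control in Cy5. Replicate 2 alone was far below 0, and the mean was -0.20 ± 0.39 with an interval of -0.73 to 0.33, while its other probes lay nearer 0 at -0.07, 0.01 and 0.01. SFRS7, now SRSF7, the other export adaptor, had -0.36, 0.11 and -0.25 with FGF18 in Cy5 and 0.13, 0.67 and 0.12 with the control in Cy5. Its mean was 0.07 ± 0.28 with an interval of -0.32 to 0.46, and the 2 orientations differed in sign in replicates 1 and 3. SFRS9, now SRSF9, had a mean of 0.19 ± 0.30 with replicates at 0.51, -0.08 and 0.14. SFRS11, now SRSF11, had -0.22, 0.58 and 0.14 with FGF18 in Cy5 and -0.31, 0.68 and 0.13 with the control in Cy5, mean 0.17 ± 0.45 with an interval of -0.43 to 0.76, above 0 in replicates 2 and 3 only.

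SR-related genes were as mixed. SFRS12, now SREK1, a partner of SR proteins, had 0.41, -1.16 and 0.15 in replicates 1, 2 and 3 (mean -0.20 ± 0.84). SFRS18 had -0.30, 1.13 and -0.07, with replicate 2 alone above 0 (mean 0.25 ± 0.77). SFRS16, now CLASRP, which binds CLK kinases, had -0.10 ± 0.29, and SFRS8, now SFSWAP, the relative of a Drosophila splicing regulator, had 0.13 ± 0.42. SFRS2IP, now SCAF11, which binds SFRS2, had -0.10 ± 0.19 and 0.08 and 0.01 by its other probes.

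**Figure D2:**
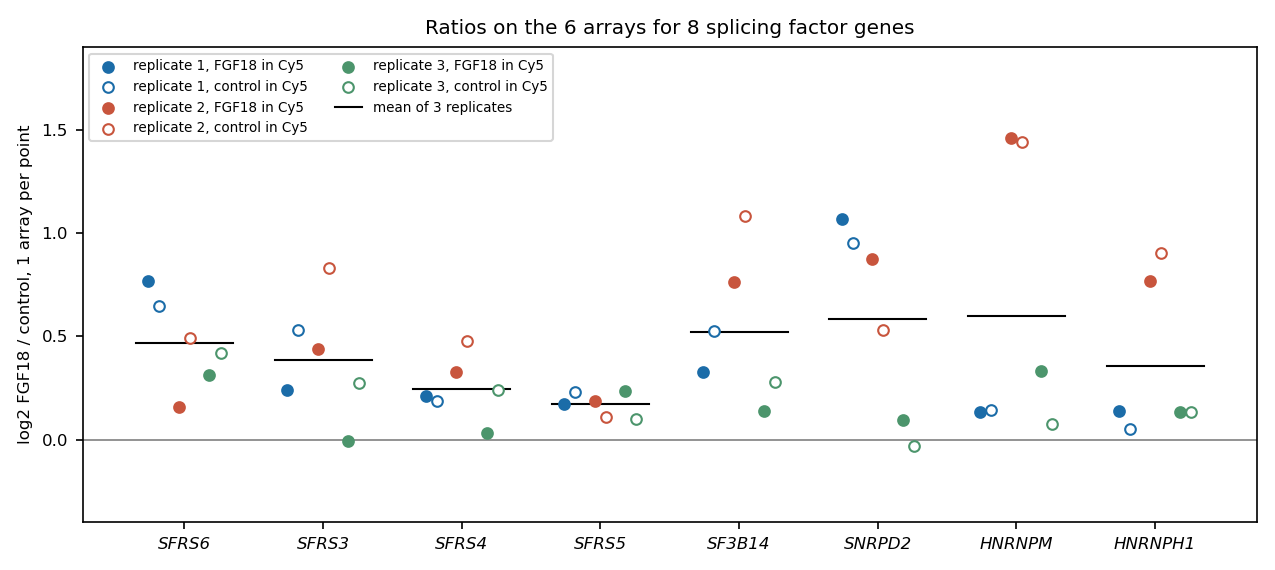
Log2 ratio of FGF18 over control (y axis) on each of the 6 arrays for 8 splicing factor genes. Filled circles are arrays with FGF18 in Cy5, open circles arrays with the control in Cy5, colours are replicates and black lines the mean of 3 replicates. SFRS5 has all 6 values close together, while those of HNRNPM and HNRNPH1 are set apart by replicate 2.

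In the SF3 complexes, 1 of 9 genes had a ratio above 0 and 0 below 0 in every replicate. The share over all genes was 12.0% in each direction. The 1 gene was SF3B14, now SF3B6, the small subunit that contacts the branch point adenosine. Its log2 intensities were 11.50, 11.48 and 11.46 in FGF18-treated cells of replicates 1, 2 and 3, against 11.07, 10.56 and 11.24 in untreated cells. All 3 FGF18 values exceeded the control values, which varied more. Its ratios were 0.33, 0.76 and 0.14 with FGF18 in Cy5 and 0.52, 1.08 and 0.28 with the control in Cy5. The mean was 0.52 ± 0.37, or 1.43-fold, with an interval of 0.03 to 1.01 and an unadjusted p of 0.0432 (adjusted p = 0.986, limma). SF3B14 is read by 1 probe.

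The other SF3 genes had means between -0.04 and 0.08 by their brightest probes, and their single replicates covered a wider range than these means. SF3B1, the scaffold that clamps the branch helix, had 0.23, 0.12 and -0.01 with FGF18 in Cy5 and -0.17, 0.17 and -0.14 with the control in Cy5. Its mean was 0.03 ± 0.11 with an interval of -0.18 to 0.25, and its other probes gave 0.32 and 0.23. SF3B2 had 0.36, -0.38 and 0.37 with FGF18 in Cy5 and 0.42, -0.60 and 0.07 with the control in Cy5, mean 0.04 ± 0.47 with an interval of -0.57 to 0.66, with replicate 2 opposite to the others. SF3A1, a subunit of the complex that joins SF3B to the U2 snRNP, had 0.09, 0.17 and -0.0025 with FGF18 in Cy5 and 0.03, -0.01 and -0.22 with the control in Cy5, mean 0.01 ± 0.10 and an interval of -0.20 to 0.22. SF3A3 had -0.52, 0.18 and 0.04 with FGF18 in Cy5 and -0.13, 0.53 and 0.27 with the control in Cy5. Replicate 1 was below 0 and the others above, and the mean was 0.06 ± 0.35 with an interval of -0.41 to 0.54. SF3B3, SF3B4 and SF3B5 had -0.04 ± 0.20, 0.08 ± 0.18 and 0.03 ± 0.31. SF3A2 went with the dye: it had -0.18, -0.53 and -0.34 with FGF18 in Cy5 and 0.24, 0.28 and 0.43 with the control in Cy5, so every array of one orientation was below 0 and every array of the other above. Its dye term was -0.67 at an adjusted p of 0.0749 in limma, and 0 of the 55 genes had an adjusted p under 0.05 for that term, beside 0.433% of all genes.

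Of 12 snRNP genes, 4 had a ratio above 0 and 1 below 0 in every replicate, and 0 had an unadjusted p under 0.05 in limma. Over all genes these shares were 12.0%, 12.0% and 3.49%. SNRPD2, an Sm ring protein, had log2 intensities of 12.85, 12.69 and 12.61 in FGF18-treated cells of replicates 1, 2 and 3, against 11.84, 11.99 and 12.58 in untreated cells. The groups did not overlap, but in replicate 3 both values were close. Its ratios were 1.07, 0.87 and 0.10 with FGF18 in Cy5 and 0.95, 0.53 and -0.03 with the control in Cy5. The mean was 0.58 ± 0.50, the highest of the family, with an interval of -0.07 to 1.24 (unadjusted p = 0.0682, limma). Without replicate 1 the mean was 0.37, without replicate 2 it was 0.52 and without replicate 3 it was 0.86, with unadjusted p of 0.19, 0.204 and 0.015 in limma. SNRPD3, another protein of the ring, had -1.45, 0.42 and 0.43, so replicate 1 was far below 0 and the others above.

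Other Sm genes varied less. SNRPD1 had -0.12, -0.04 and 0.12 with FGF18 in Cy5 and 0.02, 0.29 and 0.04 with the control in Cy5, mean 0.05 ± 0.09 and an interval of -0.14 to 0.25. SNRPE had 0.04, 0.33 and 0.12 with FGF18 in Cy5 and 0.22, 0.56 and 0.07 with the control in Cy5. All 6 were above 0, with a mean of 0.22 ± 0.19 and an interval of -0.07 to 0.52. SNRPG had 0.08 ± 0.08. SNRPF, the lowest of the family, had -0.03, -0.48 and 0.04 with FGF18 in Cy5 and -0.27, -0.74 and -0.30 with the control in Cy5. It was below 0 in every replicate and on 5 of 6 arrays, with a mean of -0.30 ± 0.27 and an interval of -0.68 to 0.09.

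SNRPB, also of the ring, had 0.39, -0.68 and -0.09 with FGF18 in Cy5 and 0.13, -0.60 and -0.0036 with the control in Cy5 by its brightest probe. The mean was -0.14 ± 0.46 with an interval of -0.75 to 0.46, but its other probe gave 0.59, above 0 in all 3 replicates. SNRPN, the imprinted, paternally expressed relative of SNRPB, had -0.32, 0.18 and -0.47 with FGF18 in Cy5 and -0.08, 0.38 and -0.15 with the control in Cy5. Its mean was -0.08 ± 0.31 with an interval of -0.51 to 0.35, and its other probes gave 0.13 and -0.01. How far probes of these 2 relatives share RNA was not tested, since probe sequences were not used here.

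Of the particle-specific proteins, SNRPA and SNRPC belong to the U1 snRNP, which recognises the start of the intron. SNRPA had -0.01, -0.83 and -0.18 with FGF18 in Cy5 and 0.20, -0.50 and 0.14 with the control in Cy5. The mean was -0.20 ± 0.41 with an interval of -0.74 to 0.35, carried by replicate 2, and its other probe gave 0.01. SNRPC had 0.12, -0.26 and -0.21 with FGF18 in Cy5 and 0.69, 0.46 and 0.54 with the control in Cy5, mean 0.23 ± 0.16 with an interval of -0.04 to 0.49 (unadjusted p = 0.0741, limma). With the control in Cy5 all 3 were above 0, and with FGF18 in Cy5 1 of 3 was. Its dye term was -0.68 at an adjusted p of 0.0874 in limma. SNRPA1 and SNRPB2 of the U2 snRNP, which binds the branch point, had 0.07 ± 0.28 and 0.28 ± 0.28, and SNRPB2 was above 0 in all 3 replicates.

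The highest and the lowest mean of the 55 both belonged to hnRNP genes. Of these 20 genes, 2 had a ratio above 0 and 2 below 0 in every replicate, and 0 had an unadjusted p under 0.05 in limma. Over all genes these shares were 12.0%, 12.0% and 3.49%. Of the 55 genes, 3 had a mean of at least 1.5-fold in either direction, beside 1.79% of all genes, and all 3 were hnRNP genes. All 3 were also among the 39 splicing genes of log2 intensity of at least 10, which makes 7.69% of these, beside 6.14% of all genes that bright. HNRNPM, which binds GU-rich RNA, had 0.14, 1.46 and 0.33 with FGF18 in Cy5 and 0.14, 1.44 and 0.08 with the control in Cy5. All 6 were above 0, but replicate 2 stood far above the others, and the mean was 0.60 ± 0.74 with an interval of -0.36 to 1.55. Its other probes above background gave 0.25, 0.21 and 0.47. In replicate 2 these probes were at -0.17, -0.24 and 0.46, against 1.45 for the brightest probe. HNRNPH1, a binder of G runs, had 0.14, 0.77 and 0.13 with FGF18 in Cy5 and 0.05, 0.90 and 0.14 with the control in Cy5, again highest in replicate 2, with a mean of 0.36 ± 0.42.

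HNRNPL, a binder of CA repeats, had log2 intensities of 13.00, 11.66 and 12.49 in FGF18-treated cells of replicates 1, 2 and 3, against 12.55, 14.75 and 13.59 in untreated cells. FGF18 was higher in replicate 1 and lower in replicates 2 and 3. Its ratios were 0.50, -3.31 and -1.29 with FGF18 in Cy5 and 0.41, -2.88 and -0.90 with the control in Cy5, with a mean of -1.24 ± 1.78 and an interval of -3.52 to 1.03. HNRNPK, a poly(C)-binding protein, had the same course, with 0.32, -2.80 and -0.84 with FGF18 in Cy5 and 0.22, -2.53 and -0.91 with the control in Cy5. Its mean was -1.09 ± 1.48 with an interval of -2.98 to 0.80, yet its other probes above background gave 0.33 and 0.08. The 2 genes were not alone in this profile: 221 of 43794 probes, which read 120 named genes, had all 3 replicate ratios within 0.5 of those of the HNRNPK probe. That window was chosen after the values were seen. What these probes share was not tested.

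The remaining hnRNP genes had intervals that included 0. HNRNPU, a scaffold of nuclear RNA, had 0.73, 0.54 and 0.02 with FGF18 in Cy5 and 0.84, 0.73 and -0.07 with the control in Cy5. Its mean was 0.47 ± 0.43 with an interval of -0.11 to 1.04, replicate 3 was near 0, and its other probe gave -0.18. HNRNPC, which coats uridine tracts of nascent RNA, had 0.65, -0.41 and -0.43 with FGF18 in Cy5 and -0.03, -0.60 and -0.79 with the control in Cy5, with replicate 1 opposite to the others in mean, and a mean of -0.27 ± 0.50 with an interval of -0.93 to 0.39. HNRNPA1, which binds splicing silencers, had 0.14, -0.20 and 0.40 with FGF18 in Cy5 and 0.27, -0.04 and 0.07 with the control in Cy5, mean 0.11 ± 0.20 with an interval of -0.19 to 0.41. HNRNPA2B1, its close relative, had -0.07, 0.66 and -0.13 with FGF18 in Cy5 and -0.06, 0.73 and -0.19 with the control in Cy5. Only replicate 2 was above 0, and the mean was 0.16 ± 0.47 with an interval of -0.46 to 0.78.

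HNRNPD, also a binder of AU-rich elements in mRNA decay, had -0.21, 0.21 and 0.02 with FGF18 in Cy5 and -0.07, 0.37 and 0.05 with the control in Cy5, mean 0.06 ± 0.22 with an interval of -0.26 to 0.38. HNRNPF, a relative of HNRNPH1, had -0.19, -0.18 and 0.12 with FGF18 in Cy5 and -0.24, -0.34 and -0.23 with the control in Cy5. It was below 0 in all 3 replicates and on 5 of 6 arrays, with a mean of -0.17 ± 0.11 and an interval of -0.39 to 0.04 (unadjusted p = 0.0829, limma). HNRNPA3 was the other hnRNP gene below 0 in all 3 replicates, at -0.23 ± 0.18. The control-in-Cy5 arrays carried that value: they gave -0.52, -0.53 and -0.32, while the FGF18-in-Cy5 arrays gave 0.05, -0.27 and 0.23. HNRNPH3 had -0.26 ± 0.24, but its other probes gave 0.11, 0.47 and -0.01.

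HNRNPH2, HNRNPR, HNRNPUL2, HNRNPA0, HNRPDL (now HNRNPDL) and HNRPLL (now HNRNPLL) had means from 0.01 to 0.33, and HNRNPAB and HNRNPUL1 had -0.01 ± 0.29 and -0.20 ± 0.41. Over the 55 genes the median SD between replicates was 0.29, against 0.17 for all genes and 0.36 for those of log2 intensity of at least 10. The 95% interval lay within 2-fold in either direction for 46 of 55 genes, beside 90.4% of all genes. For these 46 a change beyond 2-fold lay outside the interval, and for the other 9 a larger change was not excluded by it.

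**Figure D3:**
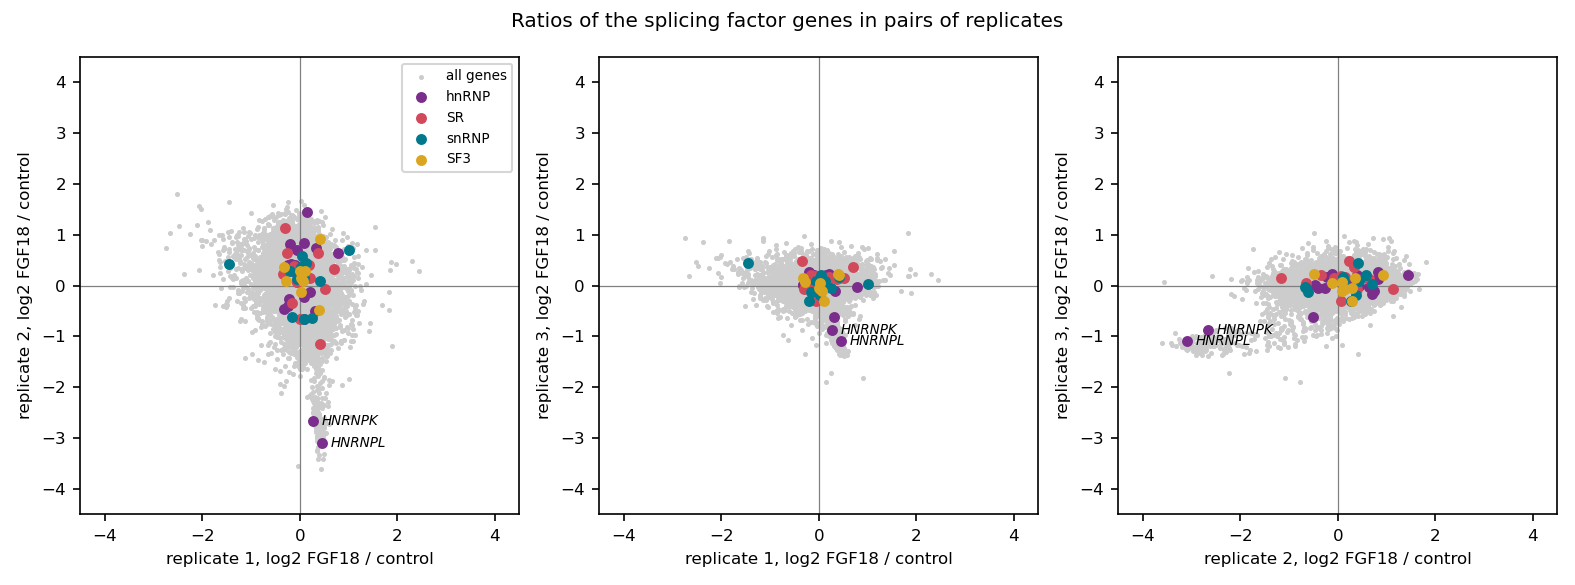
Log2 ratio of FGF18 over control of 1 replicate against another for each pair of replicates. Coloured points are the 55 splicing factor genes by family and grey points all 15229 genes. HNRNPK and HNRNPL lie in a tail of grey points that is low in replicates 2 and 3 and above 0 in replicate 1.

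The replicates also ordered the 55 genes differently. Across these genes, which are not independent, r was -0.14 between replicates 1 and 2, -0.20 between 1 and 3 and 0.62 between 2 and 3. Without HNRNPK and HNRNPL these values were -0.01, -0.11 and 0.17, so the last rests on those 2 genes. Between the arrays of a replicate, r was 0.76, 0.94 and 0.57 for replicates 1, 2 and 3, and 0.76, 0.88 and 0.29 without the same 2 genes. The sign differed between replicates 1 and 2 for 31 of 55 genes, between 1 and 3 for 28 and between 2 and 3 for 23. Over all 15229 genes the sign differed for 8706, 7181 and 7239 in the same order, so such differences were common on the whole array. Without replicate 1, the 5 genes with an unadjusted p under 0.05 in limma were SFRS6 (0.35) and SNRPD3 (0.43) above 0 and HNRNPC (-0.56), HNRNPK (-1.77) and HNRNPL (-2.09) below it. Such a p was then found for 630 of all 15229 genes.

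Probes of a gene did not always agree. Disagreement was counted for the splicing genes only, so the counts do not show whether it is particular to them. Of 24 genes with more than 1 probe, 13 had another probe above background with the opposite sign or a ratio at least 0.5 away from that of the brightest. Of 39 such other probes, 21 had the sign of the brightest probe and 18 disagreed. The genes not yet named for this were HNRNPA0 (0.01 and -0.09), HNRNPD (0.06 and -0.06), HNRPDL (0.09, then -0.16 and 0.10) and HNRPLL (0.08, then 0.15 and -0.03). The disagreement counts include sign changes between means near 0, as for HNRNPA0 and HNRNPD. They also include dim probes, such as those of SFRS2 and SNRPA at log2 intensities of 6.67 and 6.72. Transcript isoforms and cross-binding of probes were not tested.

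**Figure D4:**
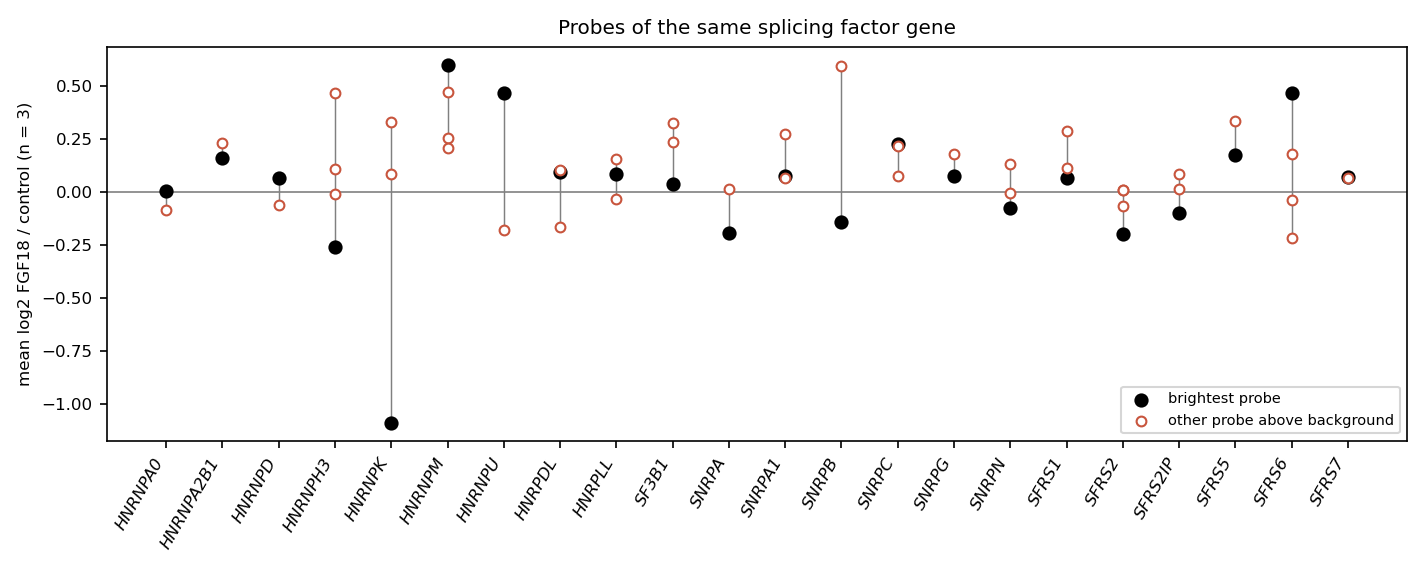
Mean log2 ratio of FGF18 over control over 3 replicates (y axis) for each probe above background of the splicing factor genes with more than 1 such probe. Filled circles are the brightest probe, open circles the others, and a grey line joins the probes of 1 gene. The widest gap is that of HNRNPK, whose brightest probe is at -1.09 and whose others, which are far dimmer, are above 0.

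Other splicing genes, none of them among the 55, were likewise below the threshold. Of 59 measured genes of the spliceosome core, which include helicases, PRPF and LSM proteins, 0 passed after adjustment in limma, 4 had an unadjusted p under 0.05 on the higher side and 0 on the lower, and the median ratio was 0.09. Over all genes, 2.32% had such a p on the higher side and 1.18% on the lower. SNRNP200, the helicase that unwinds U4 from U6, had 0.95, 0.51 and 0.65 with FGF18 in Cy5 and 0.65, 0.05 and 0.44 with the control in Cy5, mean 0.54 ± 0.26 (unadjusted p = 0.0163, limma). BUD31 had 0.30 ± 0.04 (unadjusted p = 0.00992, limma), and both genes were above 0 on all 6 arrays. Of 16 SR-related genes and SR kinases, 1 was higher at an unadjusted p under 0.05, RBM25 at 0.26 ± 0.13. ACIN1, with the next smallest p, was above background on 1 array for FGF18 and 3 for control and had -0.19 ± 0.14.

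Among 28 other RNA-binding regulators of splicing, 0 were higher and 3 lower at an unadjusted p under 0.05, with a median of -0.02. The shares over all genes were 2.32% higher and 1.18% lower. TIA1, which binds uridine-rich intron starts, had -0.28, -0.77 and -0.17 with FGF18 in Cy5 and -0.46, -0.94 and -0.50 with the control in Cy5, mean -0.52 ± 0.29. PTBP2 had -0.08, -0.06 and 0.02 with FGF18 in Cy5 and -0.26, -0.50 and -0.37 with the control in Cy5, mean -0.21 ± 0.06. The arrays with the control in Cy5 carried that value. In 20 genes of snRNP assembly, the cap-binding complex and the exon junction complex, 2 were higher and 1 lower, with a median of 0.09. DDX20, a helicase of the SMN complex that builds the Sm ring, had 0.20, 0.28 and 0.26 with FGF18 in Cy5 and 0.25, 0.67 and 0.36 with the control in Cy5, mean 0.34 ± 0.13. NCBP1, the large subunit of the nuclear cap-binding complex, had -0.57, -0.86 and -0.29 with FGF18 in Cy5 and -0.49, -0.71 and -0.31 with the control in Cy5, mean -0.54 ± 0.24, and its other probes gave -0.44 and -0.14. TIA1 and NCBP1 were below 0, and DDX20 above it, on all 6 arrays, and the adjusted p in limma was 0.986 for all 8 genes named here from outside the 55.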

How the data were processed

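RNA of FGF18-treated and untreated granulosa cells was compared on 6 arrays with a dye in each of 2 channels. RNA was, per the labels' protocols, amplified in 2 rounds and labelled chemically with Cy3 or Cy5. The deposited scanner files hold intensity per spot and local background, not normalized, per the file headers. The authors' deposited value table holds log2 ratios with no stated method. It followed background subtraction with loess at a correlation of 1.00 on each array, as FGF18 over control, with column medians of -0.00375 to 0.0019. Summary lines at the end of each scanner file were left out.

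The fit used limma 3.58.1 in R 4.3.3. Spots were corrected by normexp (offset 50, which pulls ratios of dim probes toward 0) and loess (span 0.3, control spots at weight 0). All ratios put FGF18 on top, and the 2 arrays with the same title number were averaged. The labels do not state that these share RNA. Their ratios correlated at 0.70, 0.80 and 0.32 over all genes in replicates 1, 2 and 3. Each dye orientation lies on its own slide, which leaves dye and slide confounded. The 3 replicates entered lmFit and eBayes with Benjamini-Hochberg adjustment over 15229 genes, and adjusted p-values come from limma. With 3 replicates an exact test over signs has 0.25 as its smallest p, so none is given. The dye term was fitted on 6 arrays as independent. Log2 intensities of a condition were taken after loess and Aquantile scaling. The fit was tested on simulated data.

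Members, gene lists and tests were chosen with earlier results of these data known. Named genes were the 8 smallest p, the 4 highest and 4 lowest means, a panel of 24 genes, members with disagreeing probes, and the 2 smallest p of each other list. All other members are named too. Symbols come from the platform annotation and were updated from RefSeq of ARS-UCD2.0. No sequences or coordinates are given. In all, 17 alternatives were planned. Leaving out HNRNPK and HNRNPL was added after seeing the data, as were the comparison with bright genes and the window around the HNRNPK profile.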

Additional observations from a re-analysis of the deposited data

How the results depend on the processing

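Under all 17 other settings tried 0 of 55 splicing genes and 0 genes in all passed the adjusted threshold in limma, and the smallest adjusted p of a splicing gene ranged from 0.206 to 1.00. The median ratio of the 55 stayed above 0, from 0.03 without replicate 2 to 0.16 with median centring, and was 0.07 without HNRNPK and HNRNPL. The count at an unadjusted p under 0.05, 5 as reported, was 3 at a normexp offset of 16, 2 with median centring, 3 with the filter on dim probes, 1 with an intensity trend and robust prior, and 10 with the control in Cy5 only (6 higher, 4 lower). With no replicate block, 6 arrays gave 14 (10 higher, 4 lower), and with a random replicate block 8 (7 higher, 1 lower). Over all genes the count was 1718 with no replicate block, 938 with the random block and 1646 with the control in Cy5 only. The fixed replicate block in separate channels gave 5 by construction. The arrays of a number are taken as pairs from their titles. Leaving out 1 replicate gave 5 each time, but without replicate 1 these were 2 higher and 3 lower, and without replicate 2 or 3 they were 4 higher and 1 lower. Of SFRS3, SFRS4, SFRS5, SFRS6 and SF3B14, all 5 were above 0 under every alternative. For those that leave out 1 replicate this was fixed in advance, since their ratios were above 0 in every replicate. Without replicate 1, 1 of these 5 had an unadjusted p under 0.05 (SFRS6), without replicate 2 it was 2 (SF3B14, SFRS6) and without replicate 3 it was 2 (SF3B14, SFRS3). With FGF18 in Cy5 only, 1 did (SFRS5). Of 935 recomputed ratios of single genes, 14 moved by more than the SD between replicates and 58 had the other sign, and 23 of 55 genes kept their sign throughout. The median of the snRNP genes was -0.06 with FGF18 in Cy5 only. The causes were not tested.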

Other observations

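In RefSeq's ARS-UCD2.0 annotation, HNRNPD and HNRPDL are adjacent protein-coding genes, and their ratios were -0.14, 0.29 and 0.04 for HNRNPD and -0.23, 0.41 and 0.10 for HNRPDL in replicates 1, 2 and 3. HNRPLL and SFRS7 have 1 protein-coding gene between them, and had -0.18, 0.43 and -0.00005 for HNRPLL and -0.12, 0.39 and -0.07 for SFRS7. In both pairs replicate 1 was below 0 and replicate 2 above it. The sign differed between replicates 1 and 2 for 8706 of all 15229 genes. Another bright probe of HNRPDL had -0.08, -0.18 and -0.24 in replicates 1, 2 and 3. All 4 means of the brightest probes, from 0.06 to 0.09, were near the median of the 55 splicing genes, 0.06. No test was run.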
